A study of Mus musculus with 8 samples.

Results

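The regions of open chromatin around Emx1, Emx2, Lhx2 and Pax6, 4 genes that pattern the dorsal telencephalon, were examined in single-nucleus ATAC-seq (snATAC-seq) data of the embryonic mouse forebrain. Peaks within 50 kb of the body of each gene were merged over the 8 samples into elements wherever they shared a base. This gave 76 of the 292532 merged regions of the series: 20 at Emx1, 15 at Emx2, 21 at Lhx2 and 20 at Pax6. An element is named here by its gene and by the distance in kb of its centre from the gene start, so that Emx1 -22.3 lies upstream and Emx1 +20 downstream.

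snATAC-seq marks DNA that the Tn5 transposase can reach in each nucleus. Nuclei were isolated from wild-type (WT) brain tissue of 4 regions with 2 samples per region: the cortex (CTX) and the medial, lateral and caudal ganglionic eminences (MGE, LGE and CGE), which are called GE together. All 6 GE samples and CTX replicate 1 carried the age label E12.5, whereas CTX replicate 2 was labelled E14.5, so the 2 CTX samples differ in age label as well as in replicate. The labels do not say how many embryos each sample holds, so p-values measure only the spread between these samples.

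The 4 genes encode transcription factors of the early pallium, the dorsal part of the telencephalon from which the cortex arises. Emx1 and Emx2 are homeodomain proteins related to the fly empty spiracles gene; Emx1 marks cortical progenitors and the excitatory neurons they make, and Emx2 is graded across the cortical primordium and directs regional identity. Lhx2, a LIM-homeodomain protein, specifies cortical identity at the expense of the cortical hem at the medial edge, and is also made by progenitors of the eminences. Pax6, a protein with a paired domain and a homeodomain, is strong in cortical progenitors, weaker in the LGE, and opposes the ventral factor Gsx2 at the boundary of pallium and subpallium.

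To show DNA of the distal elements that the results turn on, 300 bases of 6 of them are printed, each centred on the longest stretch that a peak of every sample covered. That stretch is only part of an element, 325 bases at Emx1 +20 and 945 at Emx1 -22.3. A difference between CTX and GE can lie outside it. The plus strand of build GRCm38 is given in lower case, read from the RefSeq assembly. Capitals mark TAATTA, a core that many homeodomain proteins bind, searched on both strands (the letters read the same on each). Emx1 -22.3 (chr6:85165585-85165884, intergenic) is shown for its high level in both CTX samples, and Emx1 +20 (chr6:85206903-85207202, past the last exon of Emx1) for the largest CTX fold. Emx2 -35.3 (chr19:59422396-59422695, intergenic) is the distal Emx2 element with the largest fold, and Pax6 +51.1 (chr2:105719450-105719749, in an intron of Elp4) the distal Pax6 element with the largest fold. Lhx2 +73.6 (chr2:38412658-38412957, intergenic) and Pax6 +58 (chr2:105726763-105727062, in an intron of Elp4) are the elements that were lower in CTX.
Emx1 -22.3: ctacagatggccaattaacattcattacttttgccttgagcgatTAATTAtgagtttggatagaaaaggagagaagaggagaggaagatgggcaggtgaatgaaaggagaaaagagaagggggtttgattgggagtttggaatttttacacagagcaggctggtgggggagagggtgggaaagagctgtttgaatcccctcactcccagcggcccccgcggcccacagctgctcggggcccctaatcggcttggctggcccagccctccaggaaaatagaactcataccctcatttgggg
Emx1 +20: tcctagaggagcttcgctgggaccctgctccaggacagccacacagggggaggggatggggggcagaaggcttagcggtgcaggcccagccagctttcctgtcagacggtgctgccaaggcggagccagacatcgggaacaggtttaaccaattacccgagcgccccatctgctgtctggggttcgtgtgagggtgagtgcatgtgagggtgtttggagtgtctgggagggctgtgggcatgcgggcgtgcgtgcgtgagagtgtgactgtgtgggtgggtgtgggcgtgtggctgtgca
Emx2 -35.3: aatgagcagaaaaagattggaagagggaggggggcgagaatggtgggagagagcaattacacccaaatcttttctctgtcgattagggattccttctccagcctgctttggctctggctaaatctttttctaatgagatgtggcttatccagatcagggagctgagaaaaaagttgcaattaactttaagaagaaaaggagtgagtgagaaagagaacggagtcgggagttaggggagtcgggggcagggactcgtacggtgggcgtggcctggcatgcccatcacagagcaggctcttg
Lhx2 +73.6: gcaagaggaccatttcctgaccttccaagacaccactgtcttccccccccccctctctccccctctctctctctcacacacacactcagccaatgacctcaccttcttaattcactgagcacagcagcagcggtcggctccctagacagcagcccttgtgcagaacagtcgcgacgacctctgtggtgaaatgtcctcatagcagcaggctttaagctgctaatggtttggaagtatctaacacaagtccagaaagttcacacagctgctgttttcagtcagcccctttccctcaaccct
Pax6 +51.1: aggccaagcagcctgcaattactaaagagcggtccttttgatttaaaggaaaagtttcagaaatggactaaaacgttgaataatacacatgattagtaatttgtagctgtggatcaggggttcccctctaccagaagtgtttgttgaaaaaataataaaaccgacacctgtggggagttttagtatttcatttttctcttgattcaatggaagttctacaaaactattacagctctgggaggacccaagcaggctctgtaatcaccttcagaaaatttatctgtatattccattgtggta
Pax6 +58: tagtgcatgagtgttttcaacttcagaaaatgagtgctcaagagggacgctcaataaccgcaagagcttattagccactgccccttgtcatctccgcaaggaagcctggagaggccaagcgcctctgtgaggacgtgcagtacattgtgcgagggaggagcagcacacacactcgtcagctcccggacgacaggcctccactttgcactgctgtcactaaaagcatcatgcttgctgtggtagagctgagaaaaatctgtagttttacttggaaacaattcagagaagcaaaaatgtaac
TAATTA was found in 1 of the 29 windows of the tested elements, that of Emx1 -22.3, and in 10.5% of 66958 windows of the same length over all tested regions with such a stretch. A second motif, TTCACGC, the core of the Pax6 paired-domain site, was found in 0 of the 29 windows and in 1.32% of all windows, again on both strands. The absence of these letters holds for these windows alone.

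Each sample held 3465 to 6845 nuclei, and the median nucleus had 14584 to 22209.5 counts in peaks; 77387940 to 138873845 counts per sample lay in peaks. The cell content differed between the 2 CTX libraries. Nuclei were clustered at Leiden resolution 0.5, where a higher value splits them further. In CTX replicate 1, 95.8% of the nuclei were glutamatergic-like and 0 were progenitor-like, but at resolution 1.0 a cluster of 836 of its nuclei (20.4%) was progenitor-like. In CTX replicate 2 10.9% were glutamatergic-like, 3 nuclei were progenitor-like (4 at resolution 1.0) and 82.9% lay in clusters that could not be named, the larger (cluster 6, with 3 of 9 glutamatergic and 2 of 12 progenitor markers raised) with Sec31b, Wnt8b and Sp8 among its top 10 genes and the other with Wnt3a and Rspo1. Clusters 8 and 9 (glutamatergic-like) came from CTX replicate 1 and clusters 6 and 11 (unnamed) from CTX replicate 2 in nearly all nuclei, so age, library and cell content cannot be told apart between the 2 CTX samples. No direction is drawn from age. Of 38362 distinct barcodes, 881 occurred in more than 1 library. As a check of the dissection, Nkx2-1, the gene that defines the MGE, had 534 and 355 CPM in MGE against 18.8 to 38.0 in the other 6 samples, where CPM are counts scaled to the effective library size of each sample. Nkx2-1 checks the MGE alone. At resolution 0.5, glutamatergic-like nuclei made up 0.219% and 1.73% of MGE, 14.2% and 10.7% of LGE, and 20.5% and 26.5% of CGE. GABAergic-like nuclei made up 24.3% to 58.0% of the GE samples, against 3.33% and 0% in CTX. Progenitor-like nuclei made up 32.8% to 49.8% of the GE samples. Whole-sample contrasts thus compare unlike mixtures of nuclei.

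The number of elements differed between samples, and so did their length. Around Emx1, peaks covered 50.4 and 57.1 kb of the 117 kb window in the 2 CTX samples and 21.6 to 32.7 kb in the GE samples. Around Emx2 the covered length was 28.5 and 29.4 kb in CTX and 19.4 to 24.7 kb in GE, and around Lhx2 51.4 and 47.5 kb in CTX and 25.7 to 45.7 kb in GE. Around Pax6 the groups overlapped, with 44.0 and 39.3 kb in CTX and 30.1 to 42.2 kb in GE. Both CTX samples thus had more DNA called as peak than every GE sample at 3 of the 4 genes. Over the whole genome peaks covered 168 and 139 Mb in CTX and 87.2 to 156 Mb in GE. CTX replicate 1 thus had more peak DNA than any GE sample there too, and CTX replicate 2 lay within the GE range. A fragment outside a sample's own peaks is not counted in that sample, so a longer peak brings a higher count, and folds with a correction for covered length are also given, for CTX against GE and between the eminences. Peaks are called from the same signal, so this offset can also remove a difference in openness. With it Nkx2-1 fell from a log2 fold of 3.69 to 1.71 in MGE against LGE. A call lost with the offset is therefore not shown to come from length alone.

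**Figure D1:**
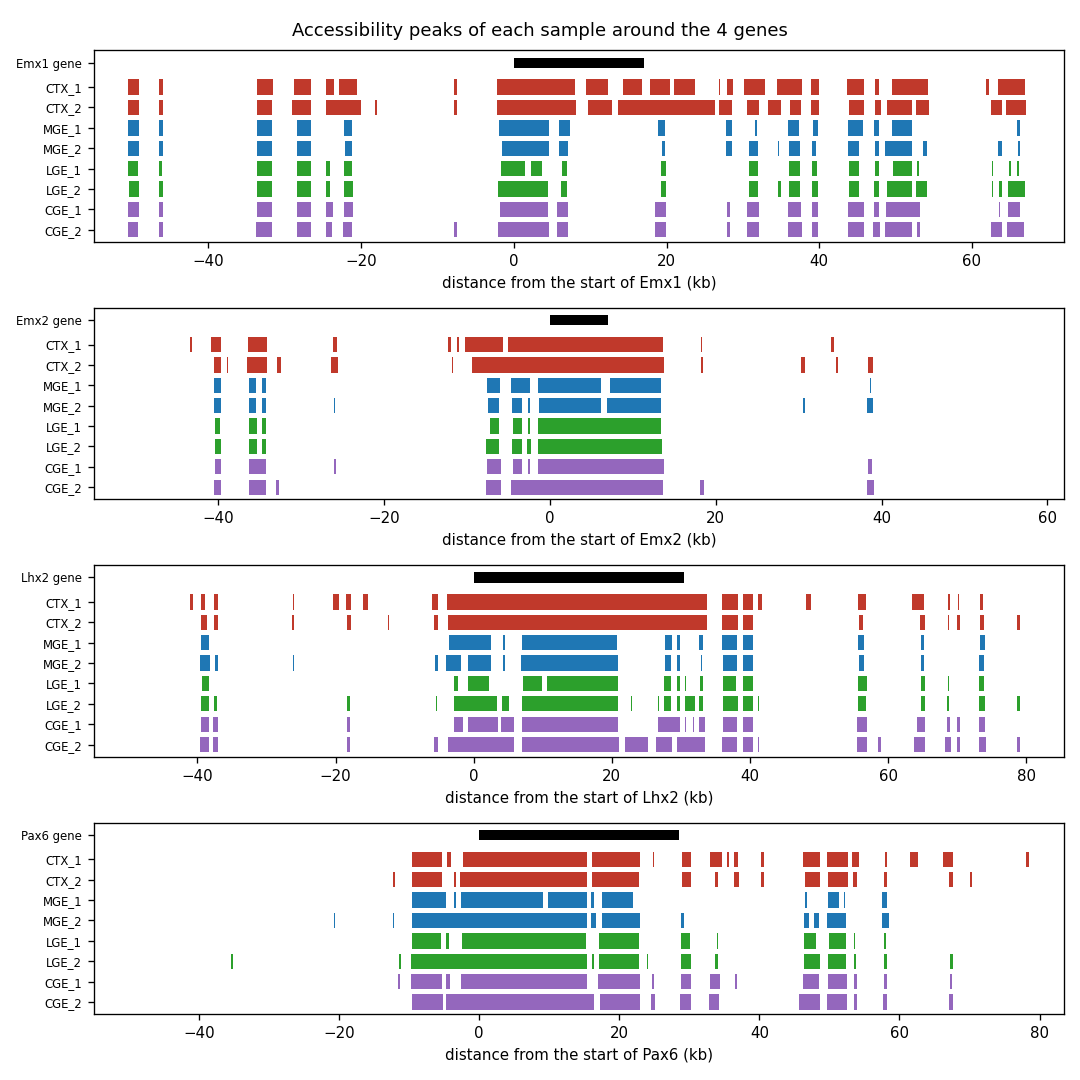
Peaks of each sample (rows, coloured by region) along the window of each gene; the horizontal axis is the distance from the gene start in kb, and the black bar is the gene. At Lhx2 both CTX samples had 1 unbroken peak over the gene body, which the GE samples split into 5 to 11 peaks, and at Emx1 peaks covered 50.4 and 57.1 kb in CTX and 21.6 to 32.7 kb in GE.

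Of the 76 elements, 29 had a peak in all 8 samples and could be tested: 14 at Emx1, 3 at Emx2, 7 at Lhx2 and 5 at Pax6. Over the whole series 23.3% of merged regions had a peak in all 8 samples. Of the other 47 elements, 18 had a peak in 1 CTX sample and no GE sample (22.7% of all regions), 2 in both CTX samples and no GE sample (3.14% of all regions), 5 in GE samples alone (23.9% of all regions) and 22 in other combinations. The tested elements are thus those open widely enough to be called in every sample, and the other 47 are described only.

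In CTX against GE, 15 of the 29 tested elements passed an adjusted p of 0.05 (51.7%), against 14.9% of the 68274 regions tested. Elements higher in CTX numbered 13 (9.49% of all regions tested were called higher) and elements lower in CTX numbered 2 (5.39%). By gene, 8 Emx1 elements, 2 Emx2 elements, 1 Lhx2 element and 2 Pax6 elements were higher, and 1 Lhx2 and 1 Pax6 element were lower. The median log2 fold was 1.21 at Emx1, 0.94 at Emx2, -0.15 at Lhx2 and 0.45 at Pax6, against 0.03 over all regions tested. Tests were edgeR's quasi-likelihood test over all tested regions with Benjamini-Hochberg adjustment. CTX and GE also differed in the classes of nuclei they held, as given above, and the part of cell content in these folds was not tested. Both CTX samples lay above all GE samples at 13 elements and below them at 2, against 12.6% and 11.8% of all regions tested. DESeq2 also called 15 of the 29 (23.1% of all regions). For the fits with 1 sample left out that follow, the share of all regions is not given, so they have no background. In edgeR the count fell to 8 without LGE replicate 1 and to 9 without LGE replicate 2 or either CGE sample, was 10 and 11 without an MGE sample, and 14 and 16 without a CTX sample.

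**Figure D2:**
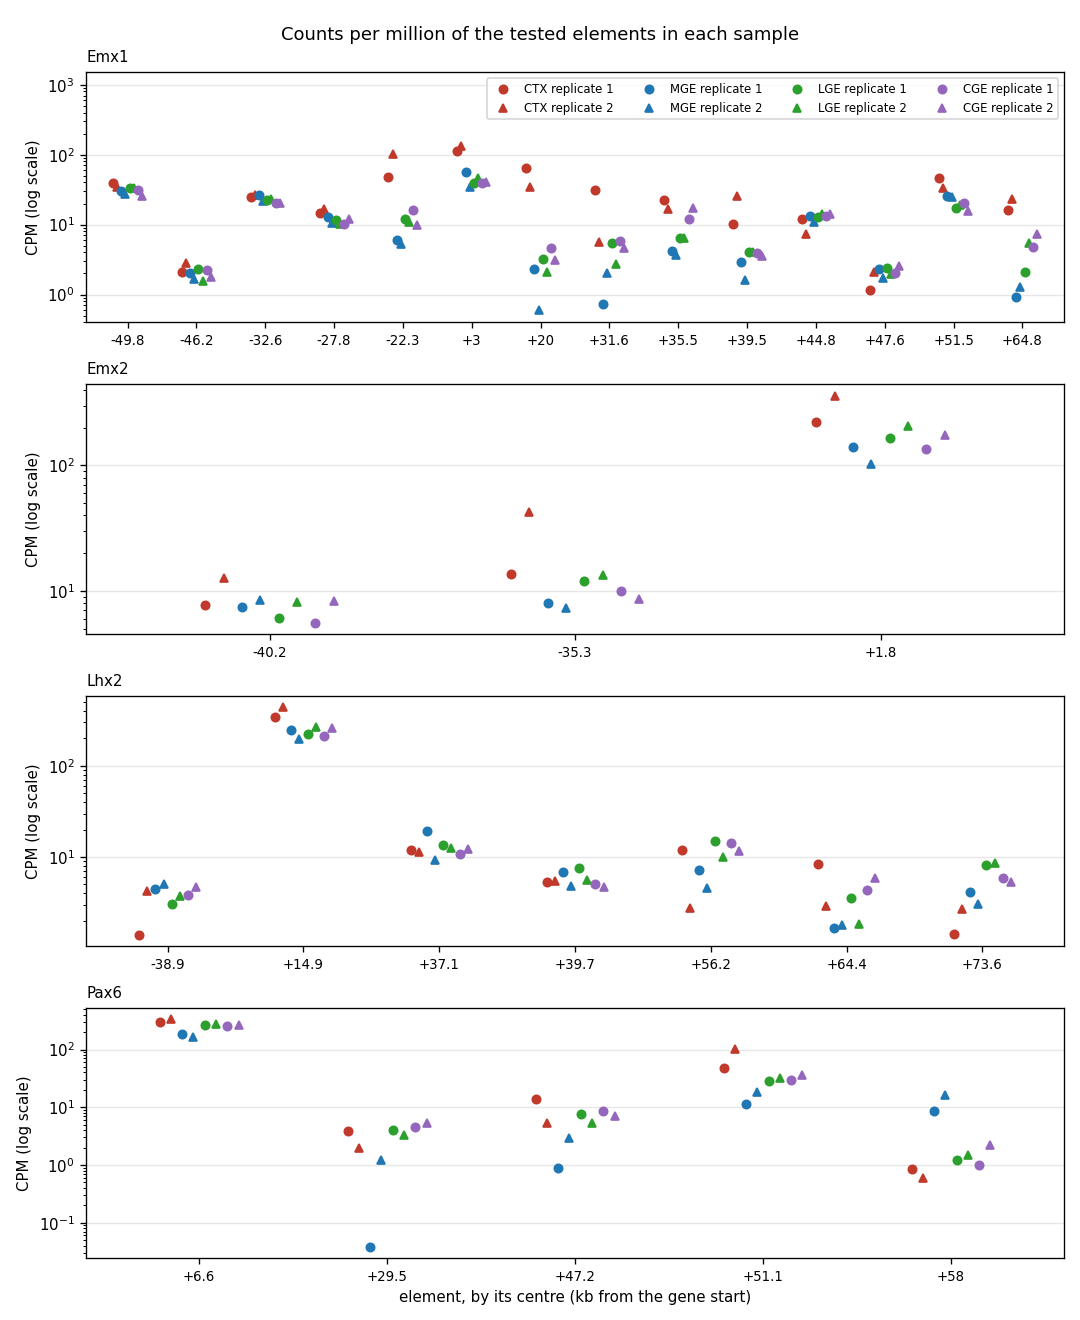
CPM (log axis) of the 29 tested elements, 1 panel per gene, with elements ordered by the distance of their centre from the gene start in kb; each point is 1 sample, coloured by region. Both CTX samples lay above all GE samples at Emx1 -22.3 and +20, and both MGE samples lay above the other 6 at Pax6 +58.

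Emx1 carried the largest differences. The element over its start site, Emx1 +3, is 10296 bases long on chromosome 6 (85185272 to 85195567) and covers the first exon. It had 112 and 133 CPM in the 2 CTX samples, 57.3 and 34.9 in MGE, 39.1 and 46.8 in LGE, and 39.6 and 40.4 in CGE. Both CTX samples lay above every GE sample, and the log2 fold was 1.51 (SE 0.18; edgeR adjusted p 0.00441). With covered length as an offset the log2 fold was 1.01 (adjusted p 0.0066), and the call held when any single sample was left out.

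Emx1 -22.3, the upstream element printed above (85162807 to 85167388 in full), had 48.0 and 103 CPM in CTX, 6.02 and 5.36 in MGE, 12.03 and 11.1 in LGE, and 16.4 and 9.79 in CGE. Both CTX samples were well above every GE sample, CTX replicate 2 was the higher of them, and MGE was lowest. The log2 fold of CTX against GE was 2.99 (SE 0.28, edgeR adjusted p 0.00267), and 1.51 with the length offset (adjusted p 0.00353). Peaks covered 3432 and 4582 bases of it in CTX and 945 to 2197 bases in GE. It was called when any single sample was left out, with folds from 2.34 (without CTX replicate 2) to 3.46 (without CTX replicate 1).

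Emx1 +20 spans the end of Emx1 and an exon of its downstream neighbour Sfxn5, a mitochondrial carrier gene, so its counts cannot be given to 1 of the 2 genes. It had 63.9 and 34.7 CPM in CTX, and from 0.607 to 4.68 CPM in the 6 GE samples. It had the largest log2 fold among the 29 elements, 4.31 (SE 0.45, edgeR adjusted p 0.00308), which was called when any single sample was left out. The length offset ended this call, with a log2 fold of 0.87 (adjusted p 0.168): peaks covered 7852 and 12684 bases of the element in CTX but 325 to 1400 bases in GE. Per covered kb it had 8.14 and 2.74 CPM in CTX and 1.87 to 5.22 in GE, so the groups overlapped.

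The other 5 Emx1 elements higher in CTX lay in Sfxn5. Emx1 +39.5 had 10.3 and 25.3 CPM in CTX and 1.63 to 4.12 in GE (log2 fold 2.46, edgeR adjusted p 0.00651), and Emx1 +64.8 had 16.4 and 23.0 CPM in CTX and 0.912 to 7.33 in GE (2.75, adjusted p 0.00537). Both were called with the length offset too (adjusted p 0.00864 and 0.023). Emx1 +31.6 (2.56, adjusted p 0.0319), +35.5 (1.45, adjusted p 0.0078) and +51.5 (0.97, adjusted p 0.0133) were not called with the offset (adjusted p 0.0504, 0.237 and 0.175). At +31.6 the CTX samples were far apart, with 31.0 CPM in replicate 1 and 5.60 in replicate 2, the latter below the 5.89 of CGE replicate 1, and at +35.5 the CTX values of 22.4 and 16.8 overlapped the 17.2 of CGE replicate 2. Emx1 +31.6 kept its call only without CTX replicate 2. Its log2 fold was 0.88 without CTX replicate 1 (edgeR adjusted p 0.275), and leaving out any GE sample gave adjusted p of 0.0521 to 0.104 (0.0768 with the replicate number as a block). The other 4 were called whichever single sample was left out.

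The remaining 6 Emx1 elements were not called. They included the promoter of Spr, which makes sepiapterin reductase (Emx1 -49.8, log2 fold 0.29, edgeR adjusted p 0.22), and Emx1 +44.8, which had the smallest fold at this gene. Emx1 +44.8 had 12.1 and 7.44 CPM in CTX and 10.8 to 14.2 in GE (-0.41, SE 0.24, adjusted p 0.339). With the length offset it was called lower in CTX (-0.82, adjusted p 0.0469), and it was also called without CTX replicate 1 (-0.78, adjusted p 0.0398). Emx1 +44.8 and +47.6, which were not called, lay between the called +39.5 and +51.5.

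Of the 6 Emx1 elements that could not be tested, Emx1 +11.2 in an intron of Emx1 (85196943 to 85200257) was the only one with a peak in both CTX samples and in no GE sample. It held 919 counts (8.66 CPM) in CTX replicate 1 and 512 (6.79 CPM) in CTX replicate 2, in 9.25% and 4.91% of nuclei before thinning. No fold can be given, because the GE files hold no count outside a called peak. Another 3 elements had a peak in 1 CTX library, at 0.0796 to 0.905 CPM.

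A single merged element covered Emx2. Emx2 +1.8 is 24013 bases long on chromosome 19 (59448150 to 59472162) and holds the whole gene and exons of Emx2os, its antisense transcript, so the 2 genes cannot be told apart by these counts. It had 224 and 361 CPM in CTX, 139.9 and 103 in MGE, 167 and 208 in LGE, and 135 and 174 in CGE. CTX replicate 1 was only slightly above LGE replicate 2. The log2 fold of CTX against GE was 0.94 (SE 0.21, edgeR adjusted p 0.0276), and 0.58 with the length offset (adjusted p 0.0842). The call was lost when any sample other than CTX replicate 1 was left out, with adjusted p from 0.052 to 0.103.

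Upstream, Emx2 -35.3 had 13.7 CPM in the first CTX sample and 42.6 in the second, against 7.25 to 13.5 in GE. CTX replicate 2 stood apart, and CTX replicate 1 was level with LGE replicate 2. The log2 fold was 1.54 (SE 0.36, edgeR adjusted p 0.0307). Leaving out CTX replicate 1 raised it to 2.16 (adjusted p 0.000229), and leaving out CTX replicate 2 lowered it to 0.51 (adjusted p 0.111), so it rested on the library labelled E14.5. Leaving out any GE sample also ended the call (adjusted p 0.0727 to 0.0947), as did the replicate number as a block (adjusted p 0.0582). Emx2 -40.2 had 7.69 and 12.6 CPM in CTX and 5.57 to 8.49 in GE, and did not pass (0.47, adjusted p 0.345). The 12 untested Emx2 elements held at most 3.46 CPM in any sample, and 7 of them had a peak in 1 CTX library and nowhere else, at 0.0133 to 0.848 CPM.

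Lhx2 had the longest element of the 4 genes. Lhx2 +14.9 is 37816 bases long on chromosome 2 (38335264 to 38373079) and covers the gene with the transcripts Gm27197 and Gm13584. It had 348 and 438 CPM in CTX, 245 and 196 in MGE, 223 and 269 in LGE, and 215 and 258 in CGE. Both CTX samples were above all GE samples (log2 fold 0.75, SE 0.15, edgeR adjusted p 0.019). With the length offset the log2 fold was 0.10 (adjusted p 0.755), and peaks covered 37629 and 37526 bases in CTX and 18789 to 33122 in GE. The call was also lost without CTX replicate 2, LGE replicate 1 or CGE replicate 1 (adjusted p 0.052 to 0.0564). Per covered kb the values were 9.24 and 11.7 CPM in CTX and 7.78 to 11.9 in GE, which overlap.

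The distal element Lhx2 +73.6 went the other way. It had 1.41 and 2.71 CPM in CTX, 4.10 and 3.08 in MGE, 8.18 and 8.62 in LGE, and 5.81 and 5.26 in CGE, so LGE was highest and both CTX samples were below every GE sample. The log2 fold of CTX against GE was -1.42 (SE 0.33, edgeR adjusted p 0.0312), and -0.89 with the length offset (adjusted p 0.0412). Leaving out any 1 of the 6 GE samples gave adjusted p of 0.0528 to 0.0876, whereas leaving out either CTX sample kept the call. The other 5 tested Lhx2 elements had log2 folds from -0.54 to 0.98 and none was called. Among them Lhx2 +56.2 split the CTX pair, with 12.03 CPM in replicate 1 and 2.75 in replicate 2 against 4.56 to 14.9 in GE, and Lhx2 +64.4 (8.40 and 2.92 CPM in CTX, 1.65 to 5.85 in GE) was called when CTX replicate 2 was left out (1.56, adjusted p 0.0128). Single-library elements of CTX replicate 1 included Lhx2 -19.9 at 4.40 CPM.

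Pax6 combined a broad element over the gene with a cluster of distal elements inside Elp4, its downstream neighbour, which encodes a subunit of the Elongator complex and is known to hold Pax6 enhancers. Pax6 +6.6 is 32686 bases long (105659206 to 105691891) and covers the Pax6 start sites, the antisense Pax6os1 and the noncoding Paupar. It had 299 and 334 CPM in CTX, 188 and 162 in MGE, 266 and 279 in LGE, and 252 and 267 in CGE. LGE and CGE lay just under CTX, and MGE lay apart below. The log2 fold of CTX against GE was 0.45 (SE 0.10, edgeR adjusted p 0.03), and 0.45 with the length offset (adjusted p 0.0703). The call was lost without CTX replicate 2, MGE replicate 2, either LGE or either CGE sample (adjusted p 0.0635 to 0.0974).

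Pax6 +51.1 had 46.9 and 100.4 CPM in CTX, 11.4 and 18.3 in MGE, 28.5 and 32.3 in LGE, and 29.9 and 36.7 in CGE. Both CTX samples were above all GE samples, both MGE samples were below all others, and LGE and CGE overlapped in between. The log2 fold of CTX against GE was 1.58 (SE 0.28, edgeR adjusted p 0.0133), with the length offset it was 1.37 (adjusted p 0.00714), and every sample left out in turn kept the call. Its lowest fold was 0.94, without CTX replicate 2, and its highest 2.05, without CTX replicate 1.

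Pax6 +58, further into Elp4, had another order. It had 0.858 and 0.584 CPM in CTX, 8.67 and 16.1 in MGE, 1.21 and 1.47 in LGE, and 1.00 and 2.17 in CGE. The 2 MGE samples stood well above the other 6, which lay within 0.584 to 2.17 CPM. Its CTX against GE log2 fold was -2.04 (SE 0.46, edgeR adjusted p 0.0267; -1.45 and 0.0146 with the length offset). This contrast averages MGE with the 2 other eminences, and leaving out MGE replicate 2, either LGE sample or CGE replicate 2 gave adjusted p of 0.0571 to 0.0657. Also in Elp4, Pax6 +47.2 (14.1 and 5.28 CPM in CTX, 0.881 to 8.66 in GE) and just past the gene Pax6 +29.5 (3.81 and 1.94 in CTX, 0.0387 to 5.23 in GE) were not called (adjusted p 0.207 and 0.839).

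Among the untested Pax6 elements, Pax6 +62.1 had 1123 counts (10.6 CPM) in CTX replicate 1 and no peak in the other 7 samples, and Pax6 +53.7 had 12.001 CPM in the first CTX sample, 2.12 in the second, 1.18 or less in LGE and CGE, and no peak in MGE. Pax6 +40.5, with a peak in both CTX samples and no GE sample, held only 1.24 and 0.756 CPM.

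**Figure D3:**
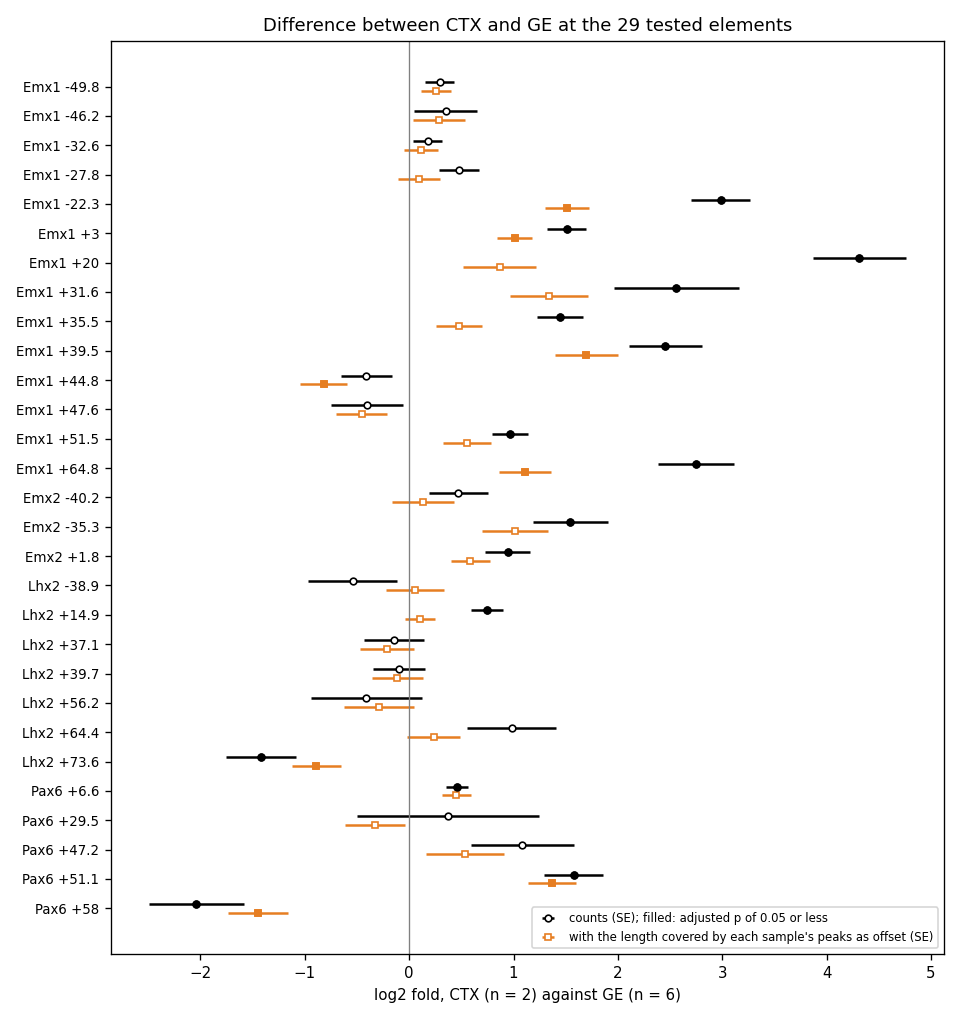
Log2 fold of CTX (n = 2) against GE (n = 6) for each tested element, from counts (black circles) and with the covered length as an offset (orange squares); bars are SE, and filled symbols passed an adjusted p of 0.05. Of the 15 elements called from counts, 7 stayed called with the offset.

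Over all 29 elements the length offset left 8 calls, 5 higher and 3 lower, against 9.17% of all regions. Of the 15 elements called without it, 7 were called with it: Emx1 -22.3, +3, +39.5 and +64.8, Lhx2 +73.6, and Pax6 +51.1 and +58. The 2 CTX samples were within 2-fold of each other at 20 of the 29 elements. At 4 elements CTX replicate 1 was at least 2-fold higher and at 5 CTX replicate 2 was, against 15.3% and 10.4% of all regions tested.

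In edgeR 0 elements were called between eminences when all 8 samples shared 1 estimate of spread, against 0.694% of regions for MGE against LGE, 0.325% for MGE against CGE and 0% for LGE against CGE. That estimate included the spread between the 2 CTX samples. DESeq2 called 4, 5 and 1 elements in these contrasts, against 7.4%, 6.61% and 0.611% of all regions. A second fit, added once the data had been seen, used the 6 GE samples without CTX and called 5 of 29 elements in MGE against LGE (10.6% of all regions) and 8 in MGE against CGE (9.40%). It called 0 elements between LGE and CGE (0.00293%). Pax6 +58 was higher in MGE, by a log2 fold of 3.20 against LGE (edgeR adjusted p 0.00562) and 2.95 against CGE (adjusted p 0.00781). In the fit of all 8 samples the same folds were 3.21 and 2.96, with adjusted p of 0.0536 and 0.072; the length offset gave 2.12 and 2.24 there (adjusted p 0.0323 and 0.052).

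The other calls of this second fit were lower in MGE. Pax6 +51.1 was lower by a log2 fold of -1.05 against LGE and -1.17 against CGE (edgeR adjusted p 0.0296 and 0.022), Pax6 +6.6 by -0.65 and -0.57 (0.0226 and 0.0381), and Emx1 -22.3 by -1.03 and -1.20 (0.0479 and 0.0312). Lhx2 +73.6 was lower in MGE against LGE (-1.23, adjusted p 0.0175), and Emx1 +35.5, Emx1 +64.8, Lhx2 +64.4 and Pax6 +47.2 against CGE (log2 folds of -1.58 to -2.47). At all of these elements but Lhx2 +73.6 and Pax6 +58 the CTX mean was above the GE mean. None of these was called by edgeR when all 8 samples were fitted. With the length offset in that fit the log2 folds against LGE and CGE were -0.84 and -0.84 for Pax6 +51.1, -0.61 and -0.52 for Pax6 +6.6 and -0.29 and -0.10 for Emx1 -22.3, and -1.15 against LGE for Lhx2 +73.6 (adjusted p 0.105 to 0.953). For the 4 elements called against CGE alone they ran from -1.63 (Emx1 +35.5, adjusted p 0.0658) to -0.02 (Emx1 +64.8). Glutamatergic-like nuclei made up 0.219% and 1.73% of the MGE samples and 10.7% to 26.5% of the LGE and CGE samples. Whether this share enters the folds of MGE against LGE and CGE was not tested.

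Summed over the gene body and the 2000 bases upstream, the members had the same order of folds as the elements over their start sites. Emx1 had 154 ± 29.9 CPM (SD, n = 2) in CTX and 44.3 ± 7.57 (SD, n = 6) in GE. The log2 fold was 1.799 with an SE of 0.19 (edgeR adjusted p 0.00791), and its peaks reached into Sfxn5 and covered 15.5 and 26.0 kb in CTX and 5.32 to 8.10 kb in GE. Emx2 had 286 ± 107 in CTX and 131 ± 42.9 in GE (log2 fold 1.203, SE 0.20, edgeR adjusted p 0.0214), and Lhx2 402 ± 53.6 and 238 ± 24.0 (0.75, SE 0.14, adjusted p 0.0293). Pax6 had 297 ± 16.5 and 227 ± 51.0 (0.42, SE 0.10, adjusted p 0.0699) and was not called by edgeR. Thus edgeR called 3 of the 4 higher, against 3.65% of 17357 genes (4.51% in either direction). DESeq2 called all 4, Pax6 with an adjusted p of 5.38e-05, and called 15% of all genes. With covered length as an offset none of the 4 was called, with log2 folds of 0.33, 0.55, 0.05 and 0.49 in the same order. The share of all genes called with the offset is not given here, so this count has no background beside it. Emx2 lost its call without MGE replicate 1, LGE replicate 1 or either CGE sample (adjusted p 0.0539 to 0.0674) and Lhx2 without CTX replicate 2, either LGE or either CGE sample (0.0506 to 0.089) or with the replicate number as a block (0.0511).

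By region, Pax6 had 164 and 161 CPM in MGE against 261 and 274 in LGE, 256 and 248 in CGE, and 285 and 309 in CTX. Emx2 had 77.2 and 81.1 CPM in MGE, 156 and 177 in LGE, 128 and 163 in CGE, and 211 and 362 in CTX. In these gene sums both genes were lowest in both MGE samples, LGE and CGE lay close together, and both CTX samples were highest. Summed over all Emx2 elements instead, MGE had 156 and 121 CPM, LGE 185 and 230, and CGE 152 and 196. There the first MGE sample was above the first CGE sample, so for Emx2 the order depended on the peaks summed. The peaks counted for the Emx2 gene covered 7.54 and 14.1 kb in MGE, 14.8 and 14.9 kb in LGE, and 15.1 and 18.4 kb in CGE. In the first MGE sample a peak from 7.23 to 13.4 kb past the gene start began beyond the gene end and was not counted. In LGE and CGE the peak over the gene reached past 13.4 kb and was counted whole. The log2 folds of MGE against LGE were -0.72 for Pax6 and -1.07 for Emx2 (edgeR adjusted p 0.246 and 0.44) and did not pass, where 0.0864% of all genes did in this contrast and in MGE against CGE. DESeq2 called both genes in both contrasts, where it called 2.71% of all genes with LGE as the second group and 2.52% with CGE. The edgeR fit of the 6 GE samples alone called neither gene. Its adjusted p was 0.0979 for Emx2 and 0.106 for Pax6 against LGE, and 0.166 and 0.16 against CGE. With the length offset in edgeR the log2 fold of Emx2 shrank to -0.48 against LGE and, from -0.88, to -0.12 against CGE (adjusted p 0.849 and 0.998). That of Pax6 stayed at -0.67 and, from -0.63, -0.65 (adjusted p 0.849 and 0.998). Lhx2 in MGE (245 and 194 CPM) overlapped LGE (236 and 259.9) and CGE (238 and 259), and Emx1 overlapped over the 3 eminences.

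The share of nuclei with at least 1 fragment in any element of a gene was computed as the expected share after thinning every nucleus to 3000 fragments in shared regions, leaving out 221 to 1097 shallower nuclei per sample. For Emx1 it was 69.3% and 71.7% in CTX, and 35.4% to 42.2% in the GE samples. For Emx2 it was 44.3% in CTX replicate 1, which was below the 44.9% of LGE replicate 2, and 66.1% in CTX replicate 2, with 27.3% to 44.9% in GE. The 2 CTX samples were thus alike for Emx1 and far apart for Emx2. For Lhx2 the shares were 64.7% and 69.4% in CTX and 42.8% to 56.4% in GE, and for Pax6 61.0% and 66.7% in CTX, 40.4% and 38.0% in MGE and 52.9% to 54.9% in LGE and CGE.

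The differences of the means were 31.3 percentage points for Emx1, 18.8 for Emx2, 15.3 for Lhx2 and 14.9 for Pax6. In an exact two-sided permutation test over the 28 ways to choose 2 of 8 samples, p was 0.0357 for Emx1 and Lhx2, the smallest this design allows, and 0.0714 for Emx2 and Pax6. Adjusted over the 4 genes all were 0.0714, so none passed. Unthinned shares were 71.5% to 88.9% in CTX and 55.2% to 80.5% in GE. Without thinning, Emx1, Emx2 and Lhx2 passed the same adjusted test and Pax6 did not, so the outcome depends on the thinning. At the smallest p of this design, whether a gene passes turns on how many of the 4 genes reach that p. These shares rise with the covered length as counts do, and a sum over nuclei cannot tell more open nuclei from more signal per nucleus.

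**Figure D4:**
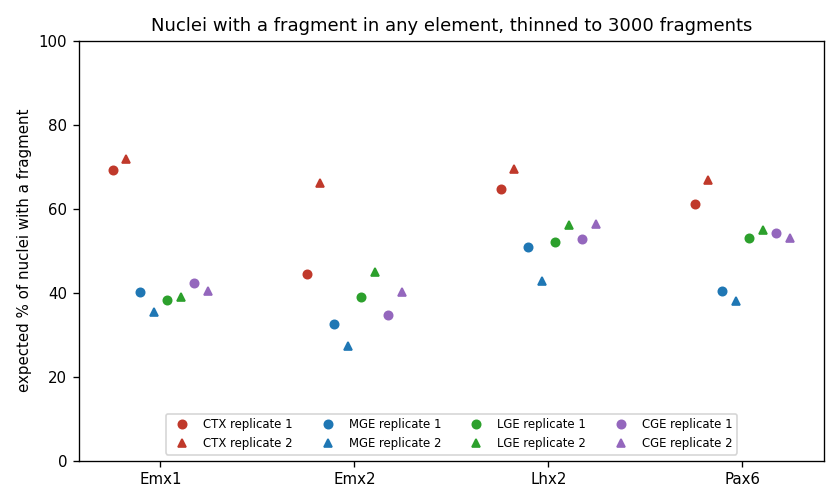
Expected percentage of nuclei with a fragment in any element of each gene, after thinning to 3000 fragments; each point is 1 sample, coloured by region. The CTX samples sit at 69.3% and 71.7% for Emx1, above all GE samples, and at 44.3% and 66.1% for Emx2, where CTX replicate 1 lies within the GE range.

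Among clusters of nuclei, which were formed without the 29 elements, the members varied within single libraries. In CTX replicate 1, glutamatergic-like cluster 8 (2453 nuclei) had Pax6 fragments in 69.8% of thinned nuclei and cluster 9 (1482 nuclei) in 46.5%. Emx2 was at 51.05% in cluster 8 and 33.0% in cluster 9, whereas Emx1 was at 70.7% and 68.0% and Lhx2 at 66.8% and 62.5%. At resolution 1.0 cluster 8 split into 1617 glutamatergic-like nuclei and the 836 progenitor-like ones, so the gap to cluster 9 is not one within a single class. Pax6 was then at 66.2% in the glutamatergic-like and 76.8% in the progenitor-like nuclei, and Emx2 at 48.3% and 56.3%, against 46.4% and 32.6% in the glutamatergic-like cluster that took 1451 nuclei of cluster 9. Cluster 9 had Neurod2 and Neurod6, genes of differentiating excitatory neurons, among its top 10, and Neurod6 was also among those of cluster 8. The gap between the 2 clusters was wide for Pax6 and Emx2 and narrow for Emx1 and Lhx2. In CTX replicate 2, unnamed cluster 6 had 71.5% to 74.2% for all 4 genes, and unnamed cluster 11 had 67.9% for Emx1, 56.5% for Emx2, 48.9% for Lhx2 and 59.4% for Pax6. Cluster 10 (endothelial-like), taken as a background, gave in the same library 40.0%, 32.3%, 29.8% and 25.9% (with a median of 5023.5 fragments per nucleus against 7608.5 in cluster 6). All 5 endothelial markers detected were raised in it, but so were 4 of 6 mural or mesenchymal ones. At resolution 1.0, 187 of its 276 nuclei from CTX replicate 2 were mural- or mesenchymal-like and 89 endothelial-like, and Emx1 was at 46.0% in the first kind of cluster and 35.3% in the second. In the GE samples, the Emx1 shares of progenitor-like clusters were 26.9% to 38.1%. In LGE replicate 1 cluster 1 (34.8%) was below the 38.1% of cluster 10, whereas in MGE replicate 1 cluster 4 (35.8%) was above the 26.6% of cluster 10, which held 55 thinned nuclei there. These cluster values are descriptions, since each CTX cluster comes nearly all from 1 library.

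Single elements also varied between the clusters. Pax6 +51.1 had a fragment in 16.0% of thinned nuclei of cluster 8 and in 1.93% of cluster 9, in 27.5% of cluster 6, 15.0% of cluster 11 and 1.17% of cluster 10 of CTX replicate 2. Emx1 +20 had the opposite order in CTX replicate 1, with 14.2% in cluster 8 and 20.3% in cluster 9, and 9.61% in cluster 6 and 4.30% in cluster 11 of CTX replicate 2 against 3.17% in its cluster 10. Emx1 -22.3 was found in 15.6% of cluster 8, 6.21% of cluster 9, 27.0% of cluster 6 and 22.6% of cluster 11, and in 1.42% of cluster 10. At these 3 elements the shares of cluster 6 were above cluster 10 of CTX replicate 2, and the share of Pax6 +51.1 in cluster 9 was near it.

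Glutamatergic-like cluster 5 held nuclei of CTX replicate 2 (540) and of the eminences. At resolution 1.0, whose clusters are numbered on their own and called finer clusters here, these fell apart by region and by library. Of the CTX nuclei, 531 lay in finer cluster 14. In CGE replicate 2 859 nuclei lay in the unnamed finer cluster 9 and 34 in finer cluster 14, whereas CGE replicate 1 had 291 and 274. Regions are therefore set side by side within finer cluster 14 alone, without CGE replicate 2. There Emx1 +20 had a fragment in 13.9% of the thinned nuclei of CTX replicate 2 and in 4.59% to 7.25% of those of both LGE samples and CGE replicate 1. Emx1 -22.3 had 17.2% against 9.47% to 12.4%, and Pax6 +51.1 6.94% against 1.57% to 5.12%. The 1 CTX library was above the 3 others at all 3 elements in this cluster. At Pax6 +51.1 it was below the 8.11% to 11.8% of LGE and CGE in the glutamatergic-like finer cluster 18, which held few CTX nuclei.

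Pax6 +58 was higher in MGE nuclei within some clusters. In progenitor-like cluster 1 it had a fragment in 3.38% and 2.77% of thinned MGE nuclei and in 0.391% to 0.677% of LGE and CGE nuclei. In cluster 4, which was almost wholly MGE progenitor-like nuclei, the shares were 2.99% and 5.10%, and in GABAergic-like cluster 2 MGE had 2.38% and 3.73% against 0.484% to 1.78% in the other 4 GE samples. MGE nuclei were above the others in clusters 1 and 2, but some of these values rest on few nuclei (79 and 51 MGE nuclei in cluster 1). In clusters 3 and 5 it was found in 0 of 29 and 0 of 52 thinned nuclei of 1 MGE sample each, which allows shares of up to 10.3% and 5.77%, with 0.365% to 0.551% and 0.337% to 0.508% in LGE and CGE. Cluster 10 gave 0% to 0.749%. Lhx2 +73.6 was highest in cluster 1, at 2.62% to 4.68% over the 6 GE samples, and was at 0.881% or less in clusters 6, 8, 9 and 11 of CTX. Cluster 10 ran from 0.149% to 0.973% over CTX replicate 2, MGE replicate 1 and LGE replicate 1, a range not taken within 1 library.

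**Figure D5:**
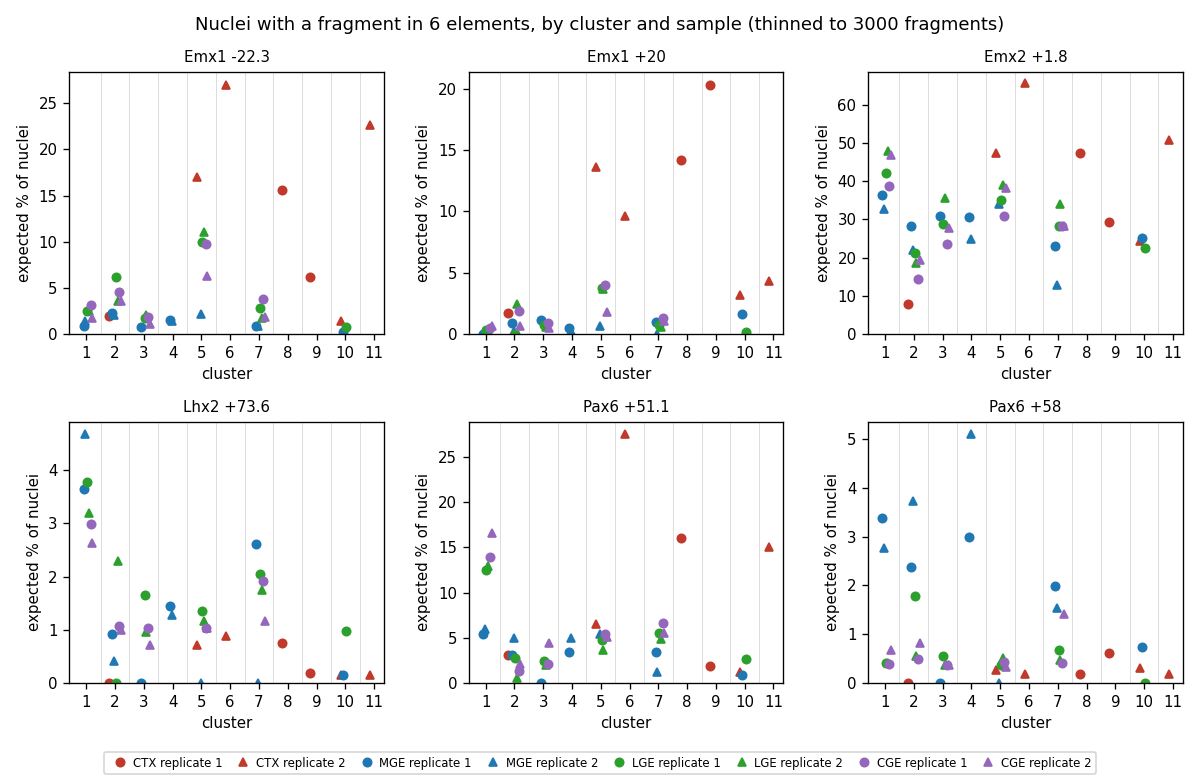
Expected percentage of nuclei with a fragment in 6 elements (panels), by cluster (horizontal axis) and sample (points), after thinning to 3000 fragments; points need at least 50 nuclei. Pax6 +51.1 separates clusters 8 and 9 of CTX replicate 1 (16.0% and 1.93%), and Pax6 +58 is highest in MGE samples of clusters 1, 2 and 4.

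The elements were also compared within progenitor-like nuclei, for which resolution 0.5 gave no usable CTX sample. At resolution 1.0 this set the 836 nuclei of CTX replicate 1 (4 of 12 progenitor and 2 of 9 glutamatergic markers raised) against 968 to 2948 nuclei of each of the 6 GE samples. The comparison is of 1 CTX library, in finer cluster 19, with GE in finer clusters 1, 4, 6 and 11, so library, region and cluster cannot be told apart and the values do not test CTX against GE. In an edgeR fit that assumes this library to vary like the others, 17 of the 29 elements were past the threshold (20.8% of all regions), and 9 with the length offset (13.4% of all regions).

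In these nuclei Pax6 +51.1 had 100.5 CPM in CTX replicate 1, 11.95 and 15.8 in MGE and 49.0 to 55.7 in LGE and CGE. Pax6 +47.2, which was not called over whole samples, had 34.8 CPM in CTX replicate 1 and 1.29 to 14.3 in GE. Emx1 -22.3 had 63.2 CPM in CTX replicate 1 and 4.28 to 10.9 in GE. At these 3 elements CTX replicate 1 was above every GE sample. At Pax6 +58 it had 0.570 CPM, MGE 10.8 and 17.8, and LGE and CGE 1.04 to 2.40, so MGE stood apart here too. Emx2 -35.3 had 26.2 CPM in CTX replicate 1 and 9.19 to 14.9 in GE. Lhx2 +73.6 went the other way, with 2.53 CPM in CTX replicate 1 and 4.72 to 13.7 in GE. Lhx2 +64.4 had 1.01 CPM in CTX replicate 1, within the 0.670 to 3.66 of GE.

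A deposited table of counts per motif was also summed by sample, with CPM scaled to the motif counts, and 4 of the 579 motifs belonged to the members. The LHX2 motif had 748 and 810.3 CPM in CTX and 528 to 638 in GE (log2 fold 0.42, SE 0.07, edgeR adjusted p 0.0632). The EMX1 motif had 563 and 588 in CTX and 459 to 506 in GE (0.28, SE 0.06, adjusted p 0.0907). Both CTX samples were above all GE samples for both motifs, but in edgeR 0 of the 579 motifs passed (0%). DESeq2 called LHX2 and EMX1 among the 4 (15.5% of the 579 motifs), and gave Pax6 no adjusted p. Unadjusted p from edgeR was 0.000576 for LHX2 and 0.00359 for EMX1. The EMX2 motif (283 and 408 in CTX, 227 to 424 in GE) and the Pax6 motif (27.8 and 44.4 in CTX, 28 to 58.7 in GE) overlapped between the groups. Homeodomain motifs share their core, so these sums do not single out the factor named.

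Other pallial genes were compared over gene bodies in the same fit. This list and the ventral list below were chosen with earlier results of these data known, so their counts are descriptions. Of 16 genes of the pallial list 6 were higher in CTX (3.65% of all genes were called higher) and 0 lower, with a median log2 fold of 0.88 against -0.0016 over all genes, and 13 of the 16 folds were above 0. The 6 were Dmrt3 (1.83), Dmrta2 (1.38), Wnt3a (1.33), Fezf2 (1.28), Neurog2 (1.13) and Lef1 (1.12), with edgeR adjusted p from 0.00813 to 0.0194. Dmrt3 and Dmrta2 encode doublesex-related factors of cortical progenitors, Neurog2 drives excitatory neurogenesis, Fezf2 specifies deep-layer projection neurons, Wnt3a is a hem signal and Lef1 acts downstream of Wnt. Wnt8b (40.1 and 251 CPM in the 2 CTX samples, 4.91 to 71.6 in GE), Sp8 (51.7 and 291 in CTX, 40.6 to 84.1 in GE), Nr2f2 (-0.67) and Gli3 (0.64, adjusted p 0.0801) were not called by edgeR, and DESeq2 called Gli3 of these 4 (adjusted p 0.00221). With the length offset Fezf2 alone of the 6 was called (1.21, adjusted p 0.0443). The log2 fold then was 1.15 for Dmrt3, 1.14 for Dmrta2, 0.47 for Neurog2 and 0.12 for Lef1, and it turned below 0 for Wnt3a (-0.23), Gli3 (-0.25) and Wnt8b (-0.27).

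Of 15 genes of the ventral list 10 were lower in CTX and 0 higher, with a median log2 fold of -0.91 (0.858% of all genes were called lower). Gsx2, the progenitor factor that Pax6 opposes, had 8.28 and 11.3 CPM in CTX and 39.8 to 137 in GE (log2 fold -2.96, edgeR adjusted p 0.0208). Dlx1 (-2.89), Dlx2 (-2.39), Nkx2-1 (-1.91), Six3 (-1.90), Vax1 (-1.60), Olig2 (-1.48), Lhx6 (-0.91), Shh (-0.89) and Ptch1 (-0.63) were lower as well. The contrast averages MGE with the other eminences, and at 2 of these genes CTX overlapped LGE: Lhx6 had 39.9 and 52.2 CPM in CTX, 269 and 236 in MGE, 41.3 and 52.8 in LGE and 52.9 and 55.5 in CGE, and Shh had 30.3 and 25.1 in CTX, 105.4 and 105.9 in MGE, 27.1 and 32.0 in LGE and 40.1 and 47.6 in CGE. Dlx1 and Dlx2 are neighbours that share peaks. With the length offset Gsx2, Dlx2 and Six3 of these 10 were called, and the 10 log2 folds lay between -1.62 and -0.30. The share of all genes called with the offset is not given, for these genes or for the pallial list. Between MGE and LGE, Nkx2-1, Shh and Lhx6, 3 of the 15, were higher in MGE and 0 lower (0.0691% and 0.0173% of all genes), and 0 of the 16 pallial genes were called. For Nkx2-1, Shh and Lhx6 the length offset gave log2 folds of 1.71, 1.04 and 0.38, against 3.69, 1.84 and 2.42 without it, and none of the 3 was called (edgeR adjusted p 0.0993 to 0.849).

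The genes whose levels over the 8 samples were most like those of a member were, for Lhx2, Dmrta2 (Pearson r = 0.971 of log2 CPM), Tfap2c (0.969) and Neurog2 (0.965). For Emx1 they were Ccr10 (0.993), Smad6 (0.983) and Prr15 (0.982), for Emx2 Lin52, Serping1 and Dcdc2c (0.975 each), and for Pax6 Atp1b4 (0.967), Boc (0.966) and Gnao1 (0.961). These were taken over protein-coding genes more than 100 kb away with a mean of at least 10 CPM over the 8 samples, a limit that a gene can pass through some of them: Atp1b4 had 0 and 1.18 CPM in MGE and 32.8 to 70.9 in the other 6. The 8 points share the regions and the covered length of each library, and with so few of them such values are a description. Dmrta2 and Neurog2 were also in the pallial list.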

How the data were processed

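The deposited files hold, per nucleus, counts in the peaks that the authors called separately in each sample; the submitters' processing notes name Cell Ranger ATAC 1.2.0 and GRCm38. A second deposited table holds counts per motif. Nearly all counts were even (5.17% to 10.4% odd), so a fragment was taken as 2 counts. The paper supplied describes other data and was not used for methods.

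Peaks were merged over the 8 samples, and counts were summed per sample, region and gene (GENCODE M21 body plus 2000 bases upstream). CPM divides by the library total (counts in the 68274 regions with a peak in every sample, in genes or in motifs) times the TMM factor. edgeR 4.0.16 (glmQLFit, glmQLFTest; all 4 groups in 1 fit, GE as the mean of 3 regions; filterByExpr) was run on shared regions, on genes and on motifs, tested first on simulated data. Depth was 77387940 to 138873845 counts per sample. Nuclei were clustered by TF-IDF, 30 LSI components and Leiden (resolution 0.5), without regions near the members; no doublet caller was run, and the 5% of nuclei with the most counts were left out as an alternative. A class needed 3 raised markers.

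Named for each gene were the element over its start sites, the other tested elements with the largest and the smallest CTX fold, the 2 with the lowest p among those called in any contrast, and, of untested ones, the element with the highest CPM with a peak in both CTX samples and no GE sample (none met the matching GE rule). Of the pathway lists, called genes and up to 4 more with the largest fold were named. All other elements named were chosen after their values were seen. The members and lists were chosen with earlier results of these data known. The planned comparison of progenitor-like nuclei found 3 of them in CTX at resolution 0.5 and was run only at resolution 1.0, with CTX replicate 1 as the 1 CTX sample (at least 50 nuclei per sample).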

Additional observations from a re-analysis of the deposited data

How the results depend on the processing

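Calls between eminences depended on the spread allowed. For the elements, edgeR called 0. DESeq2 called 4 (MGE and LGE), 5 (MGE and CGE) and 1 (LGE and CGE), against 7.4%, 6.61% and 0.611% of all regions. The covered-length offset gave 1 in MGE against LGE, where the share of all regions is not given. The fit of the 6 eminence samples, chosen after seeing the data, gave 5 and 8 in the first 2, against 10.6% and 9.4% of all regions. With 1 sample left out, elements were called in the first 2 pairs only where that sample was from CTX, and none in the last. Such a fit leaves 1 sample in a group, and its share over all regions is not given.

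In CTX against GE the 15 called elements became 8 with the length offset and 8 when regions with a peak in 2 or more samples were tested, and 8 to 16 with 1 sample left out, 8 without LGE replicate 1 and 9 without LGE replicate 2 or either CGE sample; where this leaves 1 CTX sample, that sample is assumed to vary like the others. DESeq2, total counts as library size and no filter gave 15. A 25 kb window holds fewer tested elements, and 10 of those were called, so this count is not a fall from 15. Of these fits, only the main one, DESeq2 and the element offset have a share of all regions or genes given above. For the genes, 3 calls became 4 with DESeq2, 0 with the offset and 1 to 3 with 1 sample left out (1 without LGE replicate 1, CGE replicate 1 or CGE replicate 2); DESeq2 called 2 in MGE against LGE and 2 in MGE against CGE. Of the members' motifs DESeq2 called 2. The CTX against GE folds of the 4 genes and of the called and named elements kept their sign under all alternatives run on whole samples. In the progenitor-like nuclei, with CTX replicate 1 alone, Lhx2 +64.4 had a log2 fold of -0.49, and -1.75 with the offset. Emx2 -40.2 had 0.13 there, and -0.48 with the offset. Of the other genes given above, Wnt3a, Gli3 and Wnt8b turned below 0 with the offset.

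Without thinning, the differences in nuclei were 23.0 points for Emx1, 16.9 for Emx2 and 10.97 for Lhx2, with adjusted permutation p of 0.0476; with 1 sample left out they ranged from 30.04 to 32.5 for Emx1, 7.89 to 29.7 for Emx2, 12.9 to 17.6 for Lhx2 and 12.1 to 17.8 for Pax6. With replicate number as a block 13 elements and 2 genes were called, without Emx1 +31.6, Emx2 -35.3 and the gene Lhx2. The shares of all regions and genes called with this block are not given. Same-numbered samples correlated by -0.0328 to 0.49, with 3 of the 6 pairs under 0.1, so the numbers were not taken as a pairing. The main fit thus holds no term for them. Odd counts made up 9.54% to 10.4% in the samples numbered 1 and 5.17% to 5.85% in those numbered 2. Some finer clusters also split by number: finer cluster 4 held 2075 and 56 nuclei of LGE replicates 1 and 2, and 928 and 38 of CGE. Finer cluster 3 did not, with 1094 and 887 of LGE and 674 and 649 of CGE. The comparison of progenitor-like nuclei gave no value at resolution 0.5, 17 called elements at resolution 1.0 (1 CTX library) and 9 with the length offset added after seeing the data; its other alternatives were not run. Shares by cluster at resolution 1.0 were also added after seeing the data.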
